A study of Mus musculus with 12 samples.

Results

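The genes described here are 9 named genes around the Notch receptors, out of the 27179 genes counted in dendritic cells from mouse spleen. They are the receptor genes Notch1, Notch2 and Notch4, the protease gene Adam10, the DNA-binding partner Rbpj, the targets Dtx1, Hes1 and Nrarp, and Esam, which marks a Notch-dependent kind of splenic dendritic cell. They were taken by symbol through their Entrez identifiers, and all 9 passed the filter on low counts. Conventional dendritic cells of type 1 (cDC1) and type 2 (cDC2) came from female C57/BL6 mice, either zfp366+/+ (WT) or zfp366-/- (KO). Zfp366 encodes the zinc finger protein DC-SCRIPT. Each of the 4 groups had 3 libraries, and 6 mouse pools (3 per genotype) each gave a cDC1 and a cDC2 library. The number of mice per pool, their age and how the allele was made are not given in the sources used here. All the cells came from spleens digested with collagenase and DNAse.

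Notch receptors are cleaved when a ligand on a neighbouring cell engages them. ADAM10 makes the outer cut, gamma-secretase then releases the intracellular part, and this part joins RBPJ in the nucleus to activate target genes. In the mouse spleen, signalling through NOTCH2 is known to be needed for the cDC2 that carry ESAM on their surface. Dtx1, Hes1 and Nrarp are widely used as readouts of the pathway, although Hes1 also answers to other signals.

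For 7 of the 9 genes the RefSeq table of promoters (GRCm38.p6) holds the 250 bases before a transcript start; Hes1 and Esam have no entry. Each window was searched on both strands for TGGGAA, the core that RBPJ binds, and for CACGTG, an E-box, which is a site type of basic helix-loop-helix factors. The core was in the windows of 1 of the 7 genes, Rbpj, at 149 and 65 bases before the start in the first of its windows, and 21.6% of all 32851 windows hold it. The E-box was in the windows of Nrarp (108 bases before the start) and Adam10 (64 bases before the start), and 6.02% of all windows hold it. The motifs do not overlap each other in these windows. The windows of Dtx1 and Nrarp, the members that differed by genotype in cDC1, and of Rbpj, which holds the core, are given 5′ to 3′ on the gene's strand with the motifs in capitals. The windows of Dtx1 (chr5:120711670-120711919, minus strand) and Rbpj (chr5:53590096-53590345, plus strand) lie at starts within the annotated span of the gene. The window of Nrarp (chr2:25180508-25180757, plus strand) ends where the annotated gene begins. A match is a description of these letters, and a window without a match says nothing about RBPJ elsewhere at the gene.
Dtx1: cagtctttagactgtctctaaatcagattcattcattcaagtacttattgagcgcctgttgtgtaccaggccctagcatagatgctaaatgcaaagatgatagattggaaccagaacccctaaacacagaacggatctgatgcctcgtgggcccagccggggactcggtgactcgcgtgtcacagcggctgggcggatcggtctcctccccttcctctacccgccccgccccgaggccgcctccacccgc
Nrarp: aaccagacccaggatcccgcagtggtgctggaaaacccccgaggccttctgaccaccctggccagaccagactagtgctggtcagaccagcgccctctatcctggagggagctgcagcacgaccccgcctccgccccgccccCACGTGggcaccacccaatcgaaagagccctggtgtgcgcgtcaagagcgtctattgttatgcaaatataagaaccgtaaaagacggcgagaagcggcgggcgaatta
Rbpj: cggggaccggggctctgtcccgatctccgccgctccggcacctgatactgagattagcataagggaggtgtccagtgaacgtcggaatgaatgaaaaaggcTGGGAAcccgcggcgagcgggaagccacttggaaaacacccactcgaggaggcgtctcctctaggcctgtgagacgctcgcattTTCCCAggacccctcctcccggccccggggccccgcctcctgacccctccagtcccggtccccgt

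Total counts per library ran from 11330503 to 36761685. Levels are counts scaled to library size (CPM, with TMM scaling), and differences are log2 fold changes from an edgeR quasi-likelihood fit to all 12 libraries. A gene was called at a Benjamini-Hochberg adjusted p below 0.05 over the 13415 genes tested. The sorted subsets carried their markers: 8 cDC1 markers summed to between 5960 and 8476 CPM in cDC1 and between 732 and 1266 in cDC2, and 6 cDC2 markers summed to between 1712 and 2107 CPM in cDC2. Most of the cDC1 marker sum in cDC2 was Wdfy4, at 533 to 1185 CPM. The sum was 6791 to 8476 CPM in WT cDC1 and 5960 to 6727 CPM in KO cDC1. In KO cDC1 1 of the 8 was called lower and none higher, where 1.72% of all genes tested were called lower. Itgae was at 131 to 208 CPM in WT cDC1 and 10.1 to 11.3 CPM in KO cDC1. Xcr1 was also lower without overlap, at 871 to 1068 CPM in WT and 431 to 502 CPM in KO. So were Irf8 (1942 to 2276 and 1250 to 1418 CPM) and Tlr3 (248 to 350 and 199 to 238 CPM). Cadm1 was likewise at 360 to 377 and 303 to 327 CPM. Cd8a went the other way (683 to 1190 and 1482 to 1557 CPM), and Clec9a and Wdfy4 overlapped. The cDC1 libraries of 26.9% of all genes tested did not overlap between the genotypes. Zfp366 itself fell in KO cDC1, from 103 ± 44.0 to 47.5 ± 1.85 CPM (SD, n = 3; log2 fold change -1.12, edgeR adjusted p = 0.0326), with WT replicate 1 at 152 CPM and a mean of 78.4 in the other WT libraries, while its levels in cDC2 were 57.4 ± 4.91 (WT) and 66.9 ± 12.9 CPM (KO). Counts over a whole gene do not show which exons were read, so neither the fall in cDC1 nor the level in cDC2 checks the genotype.

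Libraries numbered 1 stood apart, and the cDC1 differences of the 9 genes are also given within replicates 2 and 3. Among the 1038 genes that differed by genotype in cDC2 within replicates 2 and 3, 145 (14.0%) had the same sign in the pair of libraries labelled cDC2 KO and WT replicate 1. In cDC1 the same sign was found for 2757 of 6429 such genes (42.9%). The labels were kept as given, and whether any were exchanged was not tested. The library labelled cDC2 WT replicate 1 also held more of several cDC1 markers, with Cd8a at 62.2 CPM, Clec9a at 27.9 CPM and Irf8 at 91.4 CPM, than any other cDC2 library. Wdfy4 went the other way, at 533 CPM there and 827 to 1185 CPM in the other cDC2 libraries, and Cadm1 and Itgae were not highest there. The summed level of the cDC1 markers, 732 CPM, was the lowest of the cDC2 libraries.

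Dtx1 was the member that differed most between the genotypes, and it did so in cDC1. Dtx1 (chr5:120680203-120711867) encodes Deltex 1, a ubiquitin ligase that binds the intracellular part of Notch. In WT cDC1 its level was 2.69, 2.04 and 2.72 CPM in replicates 1, 2 and 3, and in KO cDC1 it was 32.6, 42.9 and 41.5 CPM. The lowest KO library lay far above the highest WT library, and the library numbered 1 did not stand out in WT. The log2 fold change was 3.97 (95% interval 3.47 to 4.47), a 15.7-fold rise, and its edgeR adjusted p of 4.94e-06 was the smallest of the 13415 genes. In WT cDC2 Dtx1 was at 147, 159 and 194 CPM, and in KO cDC2 at 230, 194 and 195 CPM. These groups overlapped, and the difference of 0.31 (95% interval -0.12 to 0.73) was not called (edgeR adjusted p = 1).

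The genotype effect on Dtx1 was larger in cDC1 than in cDC2 by 3.66 on the log2 scale (SE 0.30, 95% interval 3.03 to 4.30, edgeR adjusted p = 0.000185), which was again the smallest p of all genes tested. Dtx1 was the sole member called for this difference of effects, where 1.42% of all genes tested were called, 1.27% as a larger effect in cDC1. Within replicates 2 and 3 the cDC1 change was 4.13 (SE 0.18), and in the pair numbered 1, a single library of each genotype, it was 3.56. Dtx1 kept its order across the 4 groups in every replicate: WT cDC1 lowest, then KO cDC1, then the cDC2 libraries of either genotype, which did not separate from each other.

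KO cDC1 thus stood between WT cDC1 and cDC2 for Dtx1. The mean in cDC1 was 1.49% of the cDC2 mean in WT and 18.9% in KO. For Esam it went from 11.6% to 17.2%, for Hes1 from 49.9% to 93.5% and for Nrarp, in the other direction, from 24.6% to 12.3%. The Hes1 mean was higher in KO than in WT cDC1 (78.0 against 60.3 CPM) and lower in KO than in WT cDC2 (83.4 against 121 CPM). Neither Hes1 difference was called, so its percentage reflects both subsets and not cDC1 alone. All 6 cDC2 markers on the list were called higher in KO cDC1, where their summed level was 434 to 453 CPM against 50.1 to 67.1 CPM in WT cDC1. Relative to cDC2, Sirpa went from 3.73% to 13.5%, Clec4a4 from 1.30% to 15.5%, Irf4 from 4.92% to 37.5% and Itgam from 3.40% to 92.0%. The Itgam value in KO depends on KO cDC2 replicate 1, at 218 CPM against 92.4 and 97.4 CPM in replicates 2 and 3. KO cDC1 was at 128, 127 and 120 CPM, above cDC2 in replicates 2 and 3. More cells with cDC2 transcripts and more such transcripts per cell cannot be told apart in these bulk libraries, and the part of either in the Dtx1 result was not tested.

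**Figure D1:**
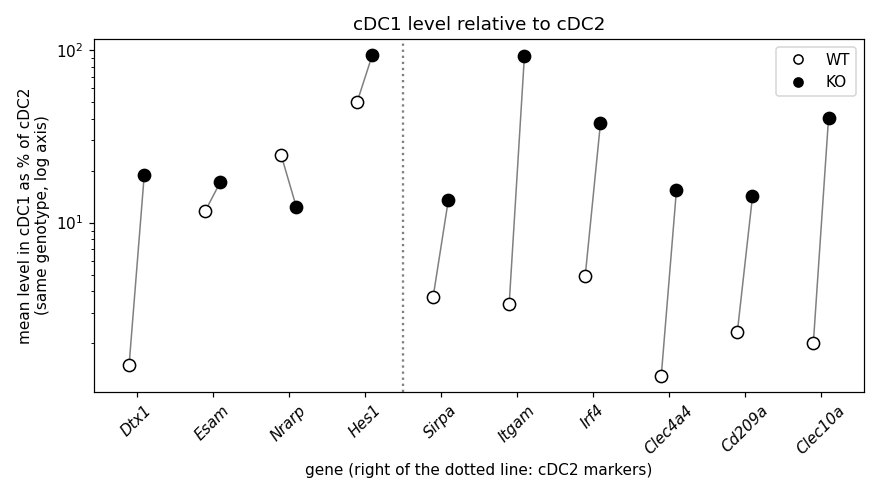
Mean CPM in cDC1 as a percentage of the mean CPM in cDC2 of the same genotype (log axis), for 4 targets or Esam on the left and 6 cDC2 markers on the right; open circles are WT and filled circles KO, each from 3 libraries per subset. Dtx1 moves from 1.49% to 18.9% while Nrarp moves down from 24.6% to 12.3%.

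Nrarp, which encodes an ankyrin repeat protein that feeds back on Notch signalling, went the opposite way in cDC1. Nrarp (chr2:25180758-25183339) was at 1.15, 1.12 and 1.21 CPM in WT cDC1 and at 0.36, 0.32 and 0.57 CPM in KO cDC1. The groups did not overlap, but these levels rest on 21, 22 and 21 reads in WT and on 9, 8 and 14 reads in KO. The log2 fold change of -1.48 (SE 0.39, 95% interval -2.33 to -0.62) was called narrowly (edgeR adjusted p = 0.0491). It was -1.41 within replicates 2 and 3 and -1.49 in the pair numbered 1. The call was lost under 13 of 21 alternatives, among them leaving out any KO library of either subset, replicate 2 of WT cDC1 or WT cDC2, or WT cDC1 replicate 3; the adjusted p was between 0.0525 and 0.223 in these 13 and as low as 0.0108 in the others. In cDC2 Nrarp was at 3.40, 5.49 and 5.28 CPM in WT and at 3.68, 3.5 and 2.94 CPM in KO, and the overlapping groups gave -0.48 (edgeR adjusted p = 1).

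Esam did not pass in cDC1, though its groups did not overlap. Esam (chr9:37528089-37538319) encodes an adhesion molecule of endothelial cells and platelets that also marks the Notch2-dependent cDC2 of the spleen. It was at 7.64, 5.61 and 7.0 CPM in WT cDC1 and at 11.7, 11.7 and 10.4 CPM in KO cDC1. The log2 fold change was 0.74 (SE 0.20, 95% interval 0.30 to 1.17, edgeR adjusted p = 0.0550). It passed under 7 of 21 alternatives, with adjusted p from 0.00238 to 0.271 over all 21, and among the 7 were those leaving out WT cDC1 replicate 1 or WT cDC2 replicate 1 or 3. It was 0.79 within replicates 2 and 3 and 0.61 in the pair numbered 1. In cDC2 the levels were 69.7, 55.3 and 49.3 CPM in WT and 65.3, 63.4 and 68.0 CPM in KO. The library labelled cDC2 WT replicate 1 was the highest of the 6, and no difference was called (0.17, 95% interval -0.25 to 0.60, edgeR adjusted p = 1).

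Since Esam is an endothelial gene, 12 endothelial markers were looked at in the same libraries. Their summed level was 55.0 to 79.6 CPM in WT cDC1, 63.7 to 81.1 in KO cDC1, 57.3 to 91.7 in WT cDC2 and 79.5 to 83.3 in KO cDC2, most of it from Pecam1, which dendritic cells express too. Tie1, Tek and Emcn were at 0 in most libraries and below 0.17 CPM in the rest. Others were detected: Vwf was at 10.2 to 18.1 CPM in cDC1 and 1.91 to 4.36 CPM in cDC2. Plvap was at 0.27 to 0.91 CPM in cDC1 and 1.37 to 13.4 CPM in cDC2. Between the WT subsets 1 of the 7 markers tested was called higher in cDC1 and 2 lower, where 21.2% of all genes were called. The part of endothelial transcripts in the Esam values was not tested.

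Hes1 was not called between the genotypes with all libraries, and it varied widely between replicates. Hes1 (chr16:30065357-30067796) encodes a transcriptional repressor. It was at 20.0, 80.5 and 80.3 CPM in WT cDC1, 38.3, 96.1 and 99.6 CPM in KO cDC1, 66.4, 167 and 129 CPM in WT cDC2, and 42.6, 103 and 105 CPM in KO cDC2. In all 4 groups the library numbered 1 was the lowest, at 0.249 to 0.449 of the mean of the other two. A comparison of the libraries numbered 1 with those numbered 2 and 3, added after these values were seen, gave -1.43 (SE 0.15, edgeR adjusted p = 0.00199); 2.63% of all genes tested were called in it. The genotype differences were 0.37 in cDC1 (95% interval -0.81 to 1.55) and -0.53 in cDC2 (95% interval -1.71 to 0.65), and neither was called. Within replicates 2 and 3 they were 0.26 (not called) and -0.51 (edgeR adjusted p = 0.0315), and the difference of effects was called there too (0.77, edgeR adjusted p = 0.00576). In the pair numbered 1 they were 0.93 and -0.64.

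Other transcripts moved with Hes1 across the replicates. The summed level of 8 macrophage markers was 93.1, 70.5, 111 and 113 CPM in the libraries numbered 1 of WT cDC1, KO cDC1, WT cDC2 and KO cDC2, and between 115 and 249 CPM in the others. The sums of neutrophil markers and of erythroid and platelet markers were likewise lowest in the library numbered 1 of each group. Fos and Jun, immediate early genes that respond to stimulation and handling, were also lower there within each group: Jun was at 219, 835, 1149 and 898 CPM in the libraries numbered 1 and between 1086 and 2415 CPM in the others. The other immediate early genes looked at, Fosb, Nr4a1, Junb, Egr1, Ier2, Atf3, Dusp1 and Zfp36, did not share that order. Junb was highest in the library numbered 1 of each group, at 1829, 3536, 3563 and 3359 CPM in the same order of groups. It was at 1140 to 2929 CPM in the other libraries. The part of any of these transcripts in the Hes1 values was not tested. Rbpj was also called in the comparison of replicates, in the other direction (0.58, SE 0.12, edgeR adjusted p = 0.0332), and lost that call under 8 of 18 alternatives.

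**Figure D2:**
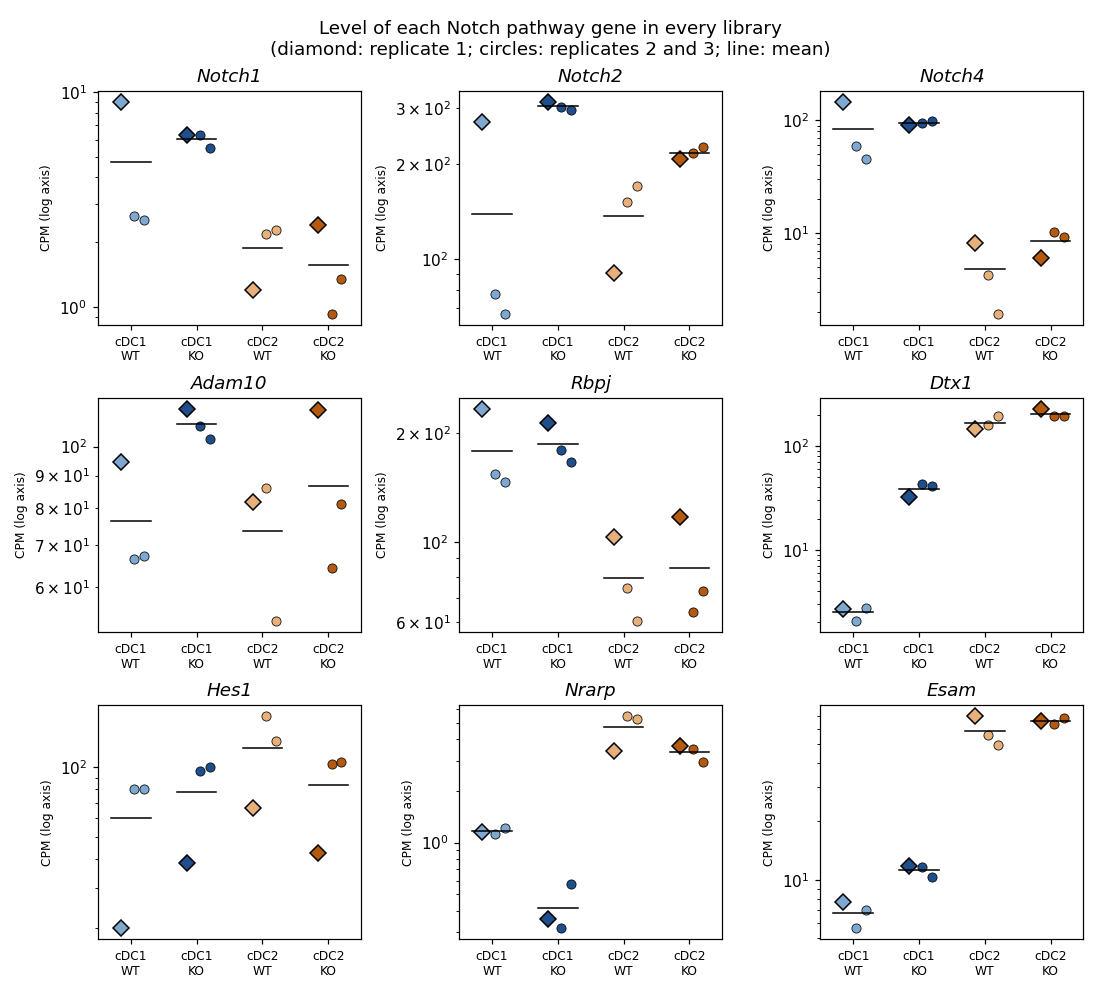
CPM of each of the 9 genes (log axes, each with its own range) in the 12 libraries by group; diamonds are replicate 1, circles replicates 2 and 3 and lines the means. Dtx1 does not overlap between WT cDC1, KO cDC1 and the cDC2 libraries, and Hes1 is lowest in the library numbered 1 of every group.

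The receptor genes did not pass between the genotypes when all libraries were used. Notch2 (chr3:98013538-98150367) encodes the receptor tied to splenic cDC2. In cDC1 it was at 273, 77.9 and 67.1 CPM in WT and at 315, 302 and 297 CPM in KO. WT replicate 1 was close to the KO libraries and the other 2 WT libraries were far below. The log2 fold change was 1.13 (SE 0.44, 95% interval 0.17 to 2.09, edgeR adjusted p = 0.183), 2.02 within replicates 2 and 3 (edgeR adjusted p = 2.51e-07) and 0.21 in the pair numbered 1. Leaving out WT cDC1 replicate 1 alone gave 2.08 (edgeR adjusted p = 0.000405), within a range of 2.51e-07 to 0.564 over the 21 alternatives. Without that library the difference of effects between the subsets was also called for Notch2 (1.41, edgeR adjusted p = 0.0325), and with all libraries it was not (0.47, edgeR adjusted p = 0.909). B cells carry NOTCH2 too, and 10 B cell markers summed to 53.1 to 75.6 CPM in WT cDC1 and 61.3 to 72.3 in KO cDC1. Ms4a1, at 32.8 to 60.8 CPM, made up most of these sums, and Pax5 and Ebf1 were below 0.32 CPM. In cDC2 the sums were 90.2 to 216 CPM in WT, lowest in replicate 1, and 130 to 148 CPM in KO. The part of B cell transcripts in the Notch2 values was not tested.

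In cDC2 Notch2 was at 90.5, 152 and 170 CPM in WT and at 207, 217 and 227 CPM in KO. The groups did not overlap, but the difference of 0.66 (95% interval -0.29 to 1.61) was not called (edgeR adjusted p = 1). It was 0.46 within replicates 2 and 3 (edgeR adjusted p = 0.0279) and 1.20 in the pair numbered 1.

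Notch4 (chr17:34564286-34588543), a receptor best known from endothelial cells, had the highest values in cDC1. It was at 147, 58.9 and 45.2 CPM in WT cDC1 and at 91.0, 95.8 and 99.3 CPM in KO cDC1, so that the KO libraries lay inside the WT range. The log2 fold change was 0.19 (95% interval -0.83 to 1.20, edgeR adjusted p = 0.870), against 0.88 within replicates 2 and 3 (edgeR adjusted p = 0.00336) and -0.69 in the pair numbered 1. In cDC2 it was at 8.17, 4.23 and 1.91 CPM in WT and at 6.06, 10.3 and 9.19 CPM in KO. The difference of 0.80 (95% interval -0.26 to 1.86, edgeR adjusted p = 1) became 1.56 within replicates 2 and 3 (edgeR adjusted p = 0.00370) and -0.43 in the pair numbered 1. The highest of the WT values belonged to the library labelled cDC2 WT replicate 1. Among the cDC2 libraries, Cd8a and Clec9a were also highest there, while Wdfy4 and the summed cDC1 markers were lowest.

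Notch1 (chr2:26457902-26503822), the receptor that directs T cell commitment, was low throughout. It was at 9.02, 2.65 and 2.54 CPM in WT cDC1, 6.33, 6.28 and 5.49 CPM in KO cDC1, 1.19, 2.18 and 2.28 CPM in WT cDC2, and 2.41, 0.92 and 1.34 CPM in KO cDC2. Neither genotype difference was called (0.35 in cDC1, 95% interval -0.76 to 1.46; -0.25 in cDC2, 95% interval -1.41 to 0.91). Within replicates 2 and 3 it was 1.15 in cDC1 (edgeR adjusted p = 0.0216), and in the pair numbered 1 it was -0.51.

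Long genes as a whole moved with these libraries. The receptor transcripts are 9489 (Notch1), 10506 (Notch2) and 6604 (Notch4) bases long by the deposited lengths, and 98.1%, 98.7% and 92.7% of the genes tested are shorter. Spearman's rho between gene length and a gene's level relative to its mean over all libraries was 0.45 in WT cDC1 replicate 1, against -0.24 and -0.34 in replicates 2 and 3, and 0.30 to 0.41 in KO cDC1. When each library's trend on length was taken out, the Notch2 change in cDC1 was 0.92 and was called (edgeR adjusted p = 0.0124). Notch1 overlaps annotated non-coding genes (0610009E02Rik and Mir6996), as does Notch2 (Gm40103), and whether the counting used strand is not given in the sources used here.

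Per kilobase of transcript, Notch2 and Notch4 were the main receptor transcripts in cDC1, and Notch2 alone in cDC2. In WT cDC1 the levels were 13.2 ± 11 CPM per kilobase for Notch2, 12.7 ± 8.35 for Notch4 and 0.50 ± 0.39 for Notch1 (SD, n = 3). The first 2 did not differ beyond their spread, and both rest on WT replicate 1: Notch2 was at 26.0 and Notch4 at 22.2 there, against means of 6.90 and 7.88 in replicates 2 and 3, where their order is turned. In KO cDC1 they were 29.0 ± 0.90, 14.4 ± 0.63 and 0.64 ± 0.05 CPM per kilobase, with each receptor apart from the next. In WT cDC2 they were 13.1 ± 3.97, 0.72 ± 0.48 and 0.20 ± 0.06, and in KO cDC2 20.7 ± 0.94, 1.29 ± 0.33 and 0.16 ± 0.08 CPM per kilobase.

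In WT cDC1 the make-up of the receptor pool was alike in the 3 replicates although its size was not. Notch4 made up 45.2%, 53.7% and 50.7% of the receptor sum per kilobase in WT cDC1 and 31.0%, 33.0% and 34.3% in KO cDC1. The groups did not overlap, and WT replicate 1, which stood apart in level, was with the other WT libraries in this share. The exact permutation test gave a two-sided p of 0.10, the smallest that 3 libraries against 3 allow. Groups that do not overlap always give that p, so the test adds nothing to the ranges. In cDC2 the share was 12.4%, 4.17% and 1.73% in WT and 4.39%, 7.0% and 6.01% in KO, with an exact permutation p of 1.

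**Figure D3:**
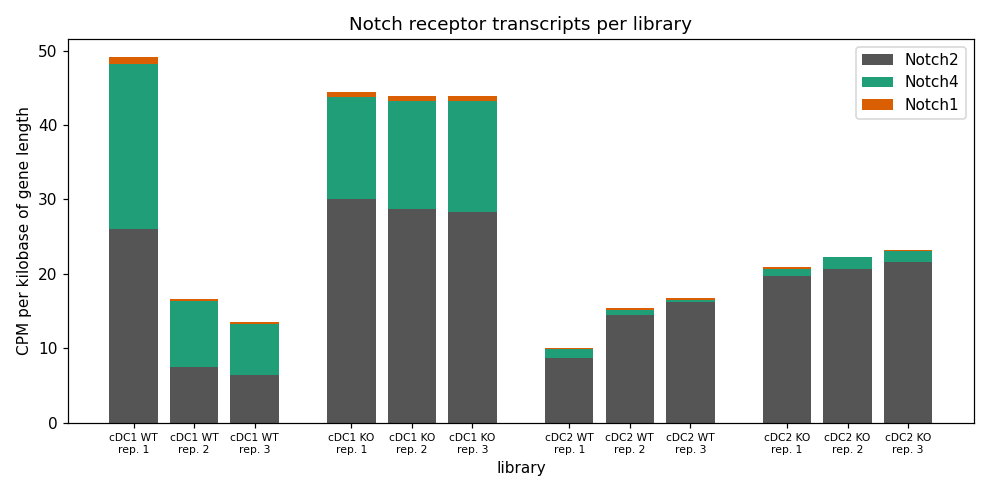
CPM per kilobase of Notch2, Notch4 and Notch1 stacked for each of the 12 libraries. The sum is high in WT cDC1 replicate 1 and low in WT cDC1 replicates 2 and 3, while Notch4 takes 45.2% to 53.7% of it in all 3 and 31.0% to 34.3% in KO cDC1.

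Adam10 and Rbpj, which serve every Notch receptor, did not pass between the genotypes when all libraries were used. Adam10 (chr9:70678944-70780229) was at 94.7, 66.6 and 67.3 CPM in WT cDC1 and at 115, 108 and 103 CPM in KO cDC1. Its groups did not overlap, and the difference of 0.51 (95% interval -0.05 to 1.07, edgeR adjusted p = 0.316) was not called with all libraries but was within replicates 2 and 3 (0.63, edgeR adjusted p = 0.0183). In cDC2 it was at 81.9, 86.0 and 53.0 CPM in WT and at 114, 64.3 and 81.1 CPM in KO, overlapping (0.23, edgeR adjusted p = 1). Rbpj (chr5:53555779-53657445) was at 233, 154 and 146 CPM in WT cDC1 and at 213, 180 and 166 CPM in KO cDC1. Its cDC1 difference of 0.07 (95% interval -0.55 to 0.68; 0.18 within replicates 2 and 3) was not called in either fit, nor was the cDC2 difference of 0.10 (95% interval -0.52 to 0.71), from 103, 74.6 and 60.4 CPM in WT and 117, 64.1 and 73.3 CPM in KO.

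In all, 2 of the 9 genes were called between the genotypes in cDC1, Dtx1 higher and Nrarp lower, where 5.32% of all genes tested were called (3.6% higher and 1.72% lower). Of all the genes called, 483 were higher and 231 lower in KO (67.6% higher), and with the length trends taken out 55.7% were higher. Non-overlapping cDC1 libraries were seen for 5 of the 9 genes (Notch2, Dtx1, Esam and Adam10 higher, Nrarp lower), against 26.9% of all genes tested. In cDC2 0 of 9 were called with all libraries, as were 0% of all genes tested by edgeR, DESeq2 or limma-voom. At an unadjusted edgeR p below 0.05 there were 0 of the 9 and 271 of all genes. These fits join the pair numbered 1 with replicates 2 and 3. Of 1038 genes called in cDC2 within replicates 2 and 3, 14.0% had the same sign in that pair. The absence of calls is therefore no measure of how alike the genotypes were in cDC2. Non-overlapping cDC2 libraries were seen for Notch2 alone, against 5.88% of all genes.

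Within replicates 2 and 3, 7 of the 9 were called in cDC1, where 47.8% of all genes were called, and 3 in cDC2, where 7.72% were. The 3 in cDC2 were Notch2 and Notch4, higher in KO, and Hes1, lower. In the pair numbered 1 Notch2 and Hes1 had the same sign as in that fit and Notch4 the opposite sign. For the difference of effects 4 were called (Notch1, Notch2, Dtx1 and Hes1), where 38.3% of all genes were.

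**Figure D4:**
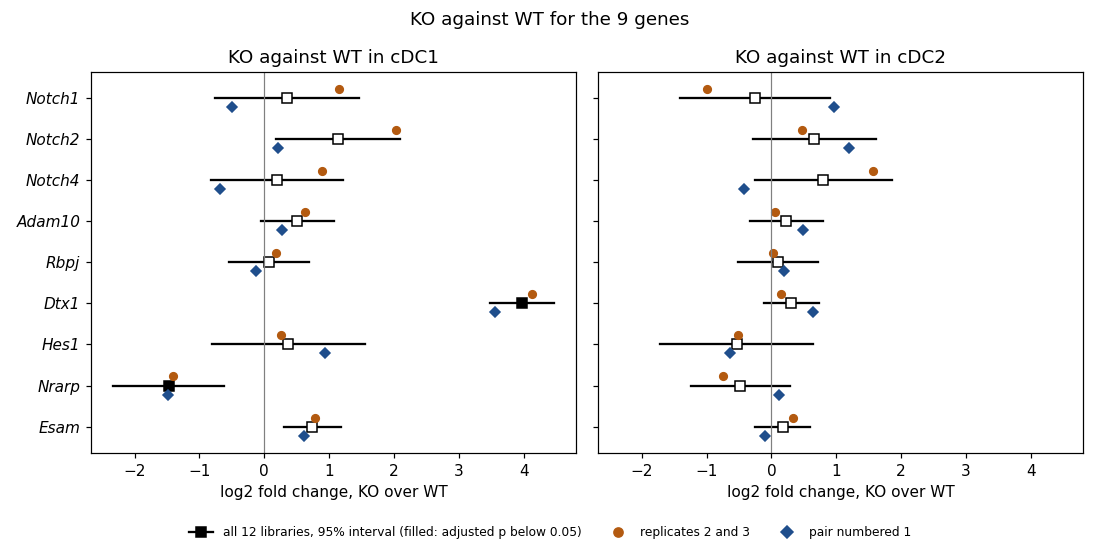
Log2 fold change of KO over WT for the 9 genes in cDC1 (left) and cDC2 (right). Squares with bars are the fit to all 12 libraries with its 95% interval, filled where the adjusted p is below 0.05; circles are the fit within replicates 2 and 3 and diamonds the pair numbered 1. Dtx1 at 3.97 in cDC1 is farthest from 0, and the receptors differ most between circles and diamonds.

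Between the subsets, Notch4 and Rbpj were higher in cDC1 and Dtx1, Esam and Nrarp higher in cDC2 in either genotype, while Notch2, Hes1 and Adam10 were called in neither with all libraries. These comparisons share libraries with those between the genotypes and are given beside them as values. In WT 5 of 9 were called, where 21.2% of all genes tested were (10.4% higher and 10.9% lower in cDC1). Notch4 (4.09, SE 0.54) and Rbpj (1.16, SE 0.29) were higher in cDC1. Dtx1 (-6.07, SE 0.25), Esam (-3.11, SE 0.21) and Nrarp (-2.01, SE 0.37) were lower in cDC1 than in cDC2. Dtx1 had the smallest p of all genes. The libraries of the subsets did not overlap for 6 of the 9, these 5 and Notch1, against 32.7% of all genes. Hes1 was not called (-1.0, edgeR adjusted p = 0.226), but it was with the mouse pool as a block (-1.15, edgeR adjusted p = 0.0157). The Rbpj call was lost in a fit to the WT libraries alone (1.13, edgeR adjusted p = 0.0544).

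In KO 6 of 9 were called between the subsets, where 16.9% of all genes tested were (8.45% higher and 8.43% lower in cDC1). Notch1 (1.94, SE 0.53), Notch4 (3.48, SE 0.52) and Rbpj (1.13, SE 0.29) were higher in cDC1, and Dtx1 (-2.40, SE 0.21), Esam (-2.54, SE 0.21) and Nrarp (-3.01, SE 0.39) were lower. The libraries did not overlap for these 6 and Notch2, 7 of the 9, against 47.8% of all genes. The Rbpj call was lost under 4 of 22 alternatives, those without KO cDC1 replicate 1 or 2 or KO cDC2 replicate 2 or 3. The Notch1 call was lost under 6 of 22, the same 4, without KO cDC1 replicate 3, and with the mouse pool as a block (2.05, edgeR adjusted p = 0.0698). Notch2 was not called between the WT subsets with all libraries (0.02, 95% interval -0.93 to 0.96), yet it was lower in cDC1 at -1.14 within replicates 2 and 3 (edgeR adjusted p = 7.19e-06) and at -0.92 without WT cDC1 replicate 1. Within replicates 2 and 3, 7 of the 9 were called between the WT subsets, where 47.5% of all genes were, and 8 of the 9 between the KO subsets, where 49.2% were.

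The other genes of the pathway were read from 8 lists of ligands, modifiers, proteases, ubiquitin ligases, nuclear cofactors and targets, 59 genes in all, of which 50 could be tested. In cDC1 3 were higher in KO, 2 were lower and 45 did not pass, where 3.6% of all genes tested were called higher and 1.72% lower; the median log2 fold change was 0.21, against 0.00 for all genes tested. The ligand Jag1 was at 12.5, 5.26 and 3.35 CPM in WT and at 27.3, 28.2 and 24.7 CPM in KO (1.92, SE 0.46, edgeR adjusted p = 0.0304). The groups did not overlap, but the call was lost under 7 of 21 alternatives, among them leaving out any KO cDC1 library or WT cDC1 replicate 2 or 3. Neurl3, a relative of the Neuralized ubiquitin ligases, went from 108, 93.4 and 99.97 CPM to 323, 245 and 246 CPM (1.43, SE 0.27, edgeR adjusted p = 0.00706) and was called under all 21 alternatives run. The corepressor Tle1 rose by 1.31 (SE 0.28, edgeR adjusted p = 0.0166) and lost its call in 5 of 21 alternatives, those leaving out a KO cDC1 library or WT cDC1 replicate 2 or 3.

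The genes that fell in KO cDC1 were Aph1b (-1.43, SE 0.32) and Aph1c (-1.39, SE 0.24), which encode a subunit of gamma-secretase. They are near-identical copies, so how the reads divided between them is uncertain. Aph1c was called under all 21 alternatives run, and Aph1b lost its call under 5 of 21 (adjusted p up to 0.110), those leaving out a KO cDC1 library or WT cDC1 replicate 2 or 3. Of the other ligands, Jag2 was at 25.8, 11.99 and 9.60 CPM in WT cDC1 and at 3.42, 4.15 and 2.17 CPM in KO cDC1, without overlap, and was not called (-2.28, edgeR adjusted p = 0.117). Dll4 was at or below 1.40 CPM in every library and was not called (0.65 in cDC1). Dll1, Dll3, Dlk1 and the receptor gene Notch3 did not pass the filter on low counts. Dtx4, a paralogue of Dtx1, did not follow it: it was at 26.8, 19.6 and 15.6 CPM in WT cDC1 and at 17.3, 17.6 and 17.9 CPM in KO cDC1 (-0.23, edgeR adjusted p = 0.631), and was higher in cDC1 than in cDC2 in WT (2.04, SE 0.24) and in KO (1.61, SE 0.23).

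With all libraries none of the 50 was called between the genotypes in cDC2 by edgeR, DESeq2 or limma-voom. None was called for the difference of effects with edgeR and all libraries. With the further 9 genes of the cDC2 lists included, 2 of 59 in cDC2 and 13 of 59 for the difference of effects had an unadjusted edgeR p below 0.05, against 271 and 1282 of the 13415 genes tested. Between the WT subsets 9 were higher in cDC1 and 5 lower, and between the KO subsets 7 were higher and 1 lower; these are 28.0% and 16.0% of the 50, where 21.2% and 16.9% of all genes tested were called. In WT these included the ligands in opposite directions, Jag2 higher (3.17, SE 0.81) and Jag1 lower in cDC1 (-1.64, SE 0.46), and the cell cycle gene Ccnd1, lower in cDC1 (-1.92, SE 0.30). The Jag1 call was lost under 5 of 22 alternatives (adjusted p up to 0.0921): the mouse pool as a block, only the WT libraries, and leaving out WT cDC1 replicate 2 or 3 or WT cDC2 replicate 2. The Jag2 call was lost with only the WT libraries (adjusted p = 0.0763).

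A pair of short lists followed the kinds of splenic cDC2 that ESAM separates. Both genes typical of ESAM-high cDC2 were called higher in KO cDC1: Clec4a4, a C-type lectin, by 3.77 (SE 0.35, edgeR adjusted p = 9.07e-05) and Cd4 by 2.28 (SE 0.51, edgeR adjusted p = 0.0211). Of the 7 genes typical of ESAM-low cDC2, 2 were called higher, the chemokine receptors Ccr2 (2.92, SE 0.63) and Cx3cr1 (2.05, SE 0.42), and 5 did not pass, where 3.6% of all genes tested were called higher. In KO cDC1 Ccr2 was at 525 ± 87.1 CPM, above WT cDC2 (75.2 ± 74.4 CPM) and KO cDC2 (58.6 ± 27.5 CPM; SD, n = 3). Cx3cr1 was at 7.17 ± 0.30 CPM there, below WT cDC2 (43.0 ± 22.8 CPM) and KO cDC2 (34.7 ± 18.2 CPM). Clec4a4 went from 5.41 ± 1.79 to 73.9 ± 1.52 CPM (SD, n = 3) and was also called for the difference of effects (3.57, SE 0.45, edgeR adjusted p = 0.00165). Cd4, Ccr2 and Cx3cr1 lost their calls when WT cDC1 replicate 2 or 3 was left out, Cd4 also without any KO cDC1 library, Ccr2 without KO cDC1 replicate 1 and Cx3cr1 with limma-voom. Ccr2 is also a monocyte marker, and the summed level of 6 monocyte markers was 508 to 572 CPM in WT cDC1 and 1173 to 1362 CPM in KO cDC1; of the 5 that could be tested Ccr2 alone was called, and the part of monocyte transcripts in these values was not tested. Clec4a4 also stands among the cDC2 markers. None of the 9 genes was called between the genotypes in cDC2 with all libraries, while Notch2, Notch4 and Hes1 were within replicates 2 and 3.

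The genes whose log2 CPM was most like that of Dtx1 over the 12 libraries were Abi3 (r = 0.99), Lair1, Zfp467, Ptpn6 and Pglyrp2 (r = 0.98 for the last), among 9355 genes with a mean of at least 5 CPM. Each was lowest in WT cDC1, then KO cDC1, and highest in cDC2 of either genotype, as Dtx1 was. The order of the cDC2 means was not the same in all of them. Pglyrp2 was at 1.04 ± 0.20 CPM in WT cDC1, 12.8 ± 0.76 in KO cDC1, 42.5 ± 19.3 in WT cDC2 and 57.4 ± 12.7 in KO cDC2 (SD, n = 3). The genes most like Esam were Pira1 (r = 1.00), Cyp4f37, Gpm6b, B4galt6 and Lysmd2 (r = 0.99 for the last). Gpm6b was at 2.77 ± 0.25, 7.38 ± 0.98, 107 ± 43.0 and 124 ± 5.52 CPM in the same order of groups. The libraries fall into subsets and the cDC1 and cDC2 libraries of a pool share their mice, so these coefficients describe the order of the groups more than variation within them.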

How the data were processed

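Polyadenylated RNA of 12 libraries was sequenced after a TruSeq preparation, per the labels. Per gene, listed by Entrez identifier, the authors deposited a raw read count for each library. The authors used featureCounts and GRCm38 (mm10), per the submitters' processing notes, with no version given; the aligner and the strand setting are not given in the sources used here. No count had been normalized. RefSeq gave symbols for 25275 of 27179 genes, and the others held 2.23% of the reads.

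Groups came from the labels. Counts were filtered with filterByExpr, scaled with TMM and fitted with edgeR 4.0.16 (R 4.3.3) as 4 group means with robust quasi-likelihood dispersions. The comparisons were KO against WT in each subset, the difference of these effects, and cDC1 against cDC2 in each genotype. Standard errors were obtained by dividing the log2 fold change by the root of F. Nothing beyond the mouse pool says how the libraries were prepared, so p-values measure the spread between these libraries. Depth and 3 libraries per group set the precision; a gene with few reads, such as Nrarp, has a wide interval.

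The members and gene lists were chosen with earlier results of these data known. Named besides the members were, per list and comparison, up to 2 called genes with the smallest p, the ligands, Dtx4, and the 5 genes most correlated with Dtx1 and with Esam. The list of 10 immediate early genes and the comparison of libraries numbered 1 were added after seeing the data. The share of Notch4 among the receptors and its permutation test were not among the planned tests. Alternatives were DESeq2 1.42.0, limma-voom 3.58.1, DESeq2 size factors, other filters, blocks, length offsets (loess, span 0.5), the compared groups alone, replicates 2 and 3 alone, and leaving out each library. The fit was tested on simulated data.

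Residuals of KO and WT libraries with the same number correlated at 0.02, -0.07 and 0.11 in cDC1 and -0.05, -0.05 and -0.06 in cDC2. A mouse pool joins a cDC1 and a cDC2 library per the labels, with residual correlations of -0.20, -0.11 and -0.07 in WT and 0.26, 0.14 and 0.14 in KO.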

Additional observations from a re-analysis of the deposited data

Results flagged for a closer look

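Dtx1 was singled out because the genotype effect differed between the subsets: the effect in cDC1 exceeded that in cDC2 by 3.66 on the log2 scale (SE 0.30, edgeR adjusted p = 0.000185). It was higher in KO than in WT in all 3 cDC1 replicates and the cDC2 libraries overlapped. Under the 21 alternatives the difference ran from 3.54 to 3.99 and was called in each. Each library was left out in turn among these alternatives, but no formal test for outlying samples was run in groups of 3 libraries.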

How the results depend on the processing

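Of 1125 values of the 9 genes under alternatives, 1064 kept their side of the threshold and any called direction, 32 lost a call, 27 gained one and 2 reversed: Notch2 between the WT subsets, at -1.14 within replicates 2 and 3 and -0.92 without WT cDC1 replicate 1 (0.02 with all libraries, -0.92 to 0.36 leaving out a library). The cause of these changes was not tested. Members called in cDC1 (2) were 1 with limma-voom, 1 without a filter, 1 with only the groups compared, 4 with length offsets and 7 within replicates 2 and 3. Over all genes, length offsets called 549 higher and 437 lower in cDC1, against 483 and 231 in the main fit. Leaving out a library gave 1 to 4 members there, with the highest count without WT cDC1 replicate 1, and 3 to 21 other pathway genes (9 with all libraries). Within replicates 2 and 3 there were 36 other pathway genes in cDC1, 3 members and 8 others in cDC2, 4 members and 31 others for the difference of effects, 39 others between the WT subsets and 32 between the KO subsets. In that fit 47.8%, 7.72%, 38.3%, 47.5% and 49.2% of all genes tested were called, in the same order of comparisons. The difference of effects (1 member, 1 other) gave 5 others with DESeq2, 2 with no filter and 4 with length offsets; leaving out a library gave 1 to 2 members and 1 to 4 others. With only the groups compared, 12 of the 21 others between the WT subsets and 23 rather than 14 between the KO subsets were called; leave-one-out counts were 17 to 23 and 8 to 18. Libraries numbered 1 against the rest (2 members) gave 1 with length offsets and 1 to 2 when a library was left out. 

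The replicate number as a block gave 4 other pathway genes for the difference of effects, ended the Nrarp call in cDC1 (adjusted p = 0.0622) and made the Esam call (0.0488) and a Hes1 call between the WT subsets (-1.14, adjusted p = 0.00360); residuals of same-numbered KO and WT libraries correlated above 0.1 in 1 of 6 pairs, so the number was not taken as a pairing, although the libraries numbered 1 shared deviations in Hes1 and in 353 genes in all. The mouse pool as a block gave 2 other pathway genes for the difference of effects, ended the Notch1 call between the KO subsets (adjusted p = 0.0698), made the Hes1 call between the WT subsets (-1.15, adjusted p = 0.0157) and changed no other call of the 9 genes.

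Over all genes, 714 were called in cDC1, 1318 with DESeq2, 6438 within replicates 2 and 3 and 318 to 3052 without a library. The difference of effects had 190, or 480 (DESeq2), 116 (pool block), 303 (length offsets), 5157 (replicates 2 and 3) and 110 to 501 without a library. In cDC2 it was 0, or 1039 within replicates 2 and 3. The WT subsets had 2846, or 6391 within replicates 2 and 3 and 1537 alone. The KO subsets had 2264, or 6620, 4172 and 1209 to 3382 without a library.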

Other observations

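The summed level of 10 immediate early genes, chosen after the values of Hes1 were seen, was lowest in WT cDC1. It was 8423 to 10545 CPM in WT cDC1, 20200 to 20331 CPM in KO cDC1, 15933 to 19272 CPM in WT cDC2 and 16916 to 17767 CPM in KO cDC2. Egr1, a zinc finger factor of the early response, was at 272, 233 and 181 CPM in WT cDC1 and at 1217, 1391 and 1281 CPM in KO cDC1. The ranges of WT and KO cDC1 did not overlap for the sum or for Egr1; they did for Fos, Fosb, Jun and Dusp1. These values are a description with no test.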
